A study of Homo sapiens with 8 samples.

Results

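The peaks described here lay on annotated pseudogenes in an acetylated RNA immunoprecipitation (acRIP) study of 2 osteosarcoma cell lines. A peak was taken when it overlapped exactly 1 annotated gene span of GRCh38, the type of that gene contained the word pseudogene, no protein-coding span was overlapped, and the peak lay outside the ribosomal RNA block of chromosome 21. By this rule 479 of 31395 peaks, on 355 pseudogenes, were members. The rule itself uses no measured value, but it was chosen with earlier results of these data known. The symbols placed 24 peaks on 24 ribosomal protein pseudogenes, 33 peaks on 29 mitochondrial pseudogenes and 422 peaks on 302 other pseudogenes.

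A processed pseudogene is a copy of a messenger RNA that was reverse transcribed and inserted into the genome. Ribosomal protein genes have left many such copies, and their letters can be so close to those of the parent messenger RNA that a short read fits both places. Nuclear mitochondrial pseudogenes are pieces of the mitochondrial genome that were inserted into nuclear chromosomes. NAT10 is the acetyltransferase that writes N4-acetylcytidine (ac4C) into RNA, with 18S ribosomal RNA and transfer RNA as its best-known substrates. In 18S ribosomal RNA it acetylates the middle base of CCG.

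The groups were 143B labelled sgNAT10 and HOS labelled sgNAT10, NAT10 knockout cells per the labels, against 143B NC and HOS NC, the control cells of the same lines. 143B is a line derived from HOS, so both lines share 1 origin. RNA was poly(A)-selected and fragmented, and fragments bound by an antibody against ac4C were sequenced. Each combination of line and genotype had 1 library, without replicates, so sgNAT10 and NC could not be tested inside 1 line. Values are raw read counts per peak, and the tables give no assay in their column names. They were taken as the acRIP libraries. Input libraries were not used here, and a shift in counts therefore mixes RNA level with antibody enrichment. In such bulk RNA, fewer cells of a kind and less RNA per cell cannot be told apart. The labels do not say whether a knockout line is 1 clone or a pool.

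Totals over all peaks ranged from 20107718 to 24785306 counts. The 143B library labelled sgNAT10 stood apart, with Spearman correlations across all peaks of 0.583 to 0.718 with the other libraries, against 0.803 to 0.865 among those. NAT10 itself had 1 peak, with 130 counts in 143B labelled sgNAT10 against 65 in 143B NC (log2 shift 0.50, interval 0.06 to 0.95), and 63 counts in HOS labelled sgNAT10 against 180 in HOS NC (-1.85, interval -2.30 to -1.44). The level of this peak thus went against the knockout label in 143B, and which part of NAT10 was cut is not given in the sources used here. Libraries are therefore named by their labels throughout, and directions in 143B rest on a library whose label this peak did not bear out. Of 10 osteosarcoma and mesenchymal markers 5 had a peak (RUNX2, VIM, SPARC, ALPL and CD44), COL1A1, COL1A2, SPP1, CDH11 and S100A4 had none, and 1 of 4 epithelial (CDH1) and 1 of 4 blood markers (PTPRC) had one.

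A shift below is the log2 difference in CPM (counts per 1e6 counts over peaks, scaled with TMM factors, prior count of 1), sgNAT10 minus NC. Its interval is the 95% exact conditional binomial one and covers counting error only; without molecular identifiers, reads may repeat 1 molecule. Other scalings add a constant to every shift: DESeq2-type factors add -0.09 (143B) and -0.16 (HOS), upper quartile factors 0.21 and -0.09, and library totals alone 0.34 and 0.58. Over all peaks the median shift was 0.28 (143B) and 0.36 (HOS), and 58% (143B) and 63.7% (HOS) of all peaks had a shift above 0. Shifts of pseudogene peaks are best read against these values.

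Of the 479 peaks, 292 lay on genes typed pseudogene and 187 on genes typed transcribed_pseudogene. The median width was 129 bp (range 95 to 4536 bp), against 135 bp over all peaks, and the median of the mean count over the 4 libraries was 24, against 23.5 over all peaks. A mean count of 100 or more was reached by 87 members. Single peaks were the rule: 286 of the 355 pseudogenes carried 1 peak, and the most on 1 pseudogene was 13. No peak lay on the mitochondrial chromosome, although mitochondrial pseudogenes were among the members with the most counts. The tables do not say how reads that fit several places were handled. Counts on a pseudogene therefore cannot be told apart from counts of its parent RNA or of another copy, and this holds for every value below. No pair among the 274 members whose mean count was at least 20 had the same counts in all 4 libraries. Counts in 143B alone did repeat. The 3 peaks of NF1P9 on chromosome 15 each had 6 counts in 143B labelled sgNAT10 against 1 in 143B NC. Several peaks of CHEK2P2 had 3 against 2. Whether such peaks share reads was not tested.

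A genome sequence was not used here, and 1 member lay whole inside a promoter window of the RefSeq tables. It is shown as the member whose letters could be read. It lay on LOC110262331, a pseudogene that also held the peak with the second most counts outside the mitochondrial and ribosomal protein families. The interval was chr16:34160023-34160196 on GRCh38.p14, 174 bases on the plus strand of the chromosome, from the window of LINC00273 in RefSeq, and capitals mark CCG, the triplet that NAT10 acetylates in 18S ribosomal RNA.
LOC110262331: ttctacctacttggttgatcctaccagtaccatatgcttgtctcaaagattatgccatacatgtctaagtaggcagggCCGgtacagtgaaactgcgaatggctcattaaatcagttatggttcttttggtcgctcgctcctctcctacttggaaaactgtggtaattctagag
CCG occurred 1 time on the printed strand and 1 time on the other strand, at a GC content of 43.7%. A stretch of the same length held CCG on either strand in 78.6% of the 35116 promoter windows, whose median GC content was 56.9%. Peak starts are printed as deposited and may count from 0 or 1, so the stretch may be off by 1 base at its start. This peak had 150 counts in 143B labelled sgNAT10 against 169 in 143B NC (shift -0.67, interval -0.997 to -0.34). It had 122 counts in HOS labelled sgNAT10 against 96 in HOS NC (-0.01, interval -0.40 to 0.40). The longer peak on the same pseudogene (chromosome 16, 34160552 to 34161700) had 4337 counts in 143B labelled sgNAT10 against 2417 in 143B NC, and 3458 in HOS labelled sgNAT10 against 1889 in HOS NC. Its shifts were 0.35 in 143B and 0.52 in HOS, so the 2 peaks of this pseudogene had opposite signs in 143B.

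Taken as 1 class, pseudogene peaks were close to peaks in general. Their median shift was 0.25 in 143B and 0.41 in HOS, 274 of 479 lay above 0 in 143B and 322 of 479 in HOS. Among peaks whose mean count was at least 50, the medians were -0.33 and 0.12 for 148 members, against -0.37 and 0.07 for all peaks, so the sign in 143B goes with the count level. Pseudogene peaks held 0.322% of the counts in 143B labelled sgNAT10 against 0.290% in 143B NC, and 0.341% in HOS labelled sgNAT10 against 0.217% in HOS NC. These are shares of raw totals. With TMM factors the shift of their summed counts was -0.20 in 143B and 0.07 in HOS, against -0.34 and -0.58 for all peaks summed. After a filter on low counts 373 members remained for the test and for counts of 2-fold differences. In 143B 89 of these were at least 2-fold higher and 79 at least 2-fold lower in the library labelled sgNAT10, that is 23.9% and 21.2%, against 20.1% and 21.4% of all peaks that passed. In HOS 74 were at least 2-fold higher and 23 at least 2-fold lower, that is 19.8% and 6.17%, against 24.4% and 8.74% of all such peaks. A shift in 143B above that in HOS was seen in 216 of 479 members, against 44.8% of all peaks. Among the members whose mean count was at least 50, 23.6% were at least 2-fold higher and 25% lower in 143B, against 14.4% and 32.1% of all such peaks. In HOS these shares were 10.8% and 4.73%, against 13.3% and 13.2%.

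The test of sgNAT10 against NC across both lines, edgeR's quasi-likelihood test with cell line as a block on all 24467 peaks that passed the filter, called 0 members at an adjusted p of 0.05. It called 0% of all tested peaks. The smallest adjusted p of a member was 0.98. At an unadjusted p under 0.05 there were 15 of 373 members, against 3.86% of all tested peaks. The DESeq2 Wald test and limma-trend also called 0 members, with 4 and 17 at an unadjusted p under 0.05, that is 1.07% and 4.56%, against 2.04% and 4.45% of all tested peaks. The design left 1 residual degree of freedom. Higher and lower below describe libraries and are not calls.

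The families differed from one another more than the class differed from all peaks. Ribosomal protein pseudogene peaks had a median shift of 0.82 (143B) and -0.10 (HOS). For mitochondrial pseudogene peaks the medians were -0.78 (143B) and 0.46 (HOS). The other pseudogenes, with 0.26 and 0.44, lay close to the all-peak medians. Ribosomal protein peaks thus had the highest family median in 143B and the lowest in HOS, and mitochondrial peaks the lowest in 143B. In HOS the mitochondrial and other medians were too close to order. With libraries at 0 counts set to a floor of 3 counts they were 0.38 and 0.41. A scaling adds nearly the same constant to a family median and to the all-peak median. The difference between them could thus hardly move with scaling, and that it did not is no check. Ribosomal protein pseudogenes were 0.54 above the all-peak median in 143B and 0.46 below it in HOS (a difference of -0.46). Mitochondrial pseudogenes differed from it by -1.06 in 143B and by 0.10 in HOS. Above the same mean count of 50, 11 ribosomal protein peaks had medians of 0.84 and -0.08, and 19 mitochondrial peaks -1.14 and 0.46. Both families were small and their members share parent RNAs or inserts, so these medians describe 4 libraries and were not tested.

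**Figure D1:**
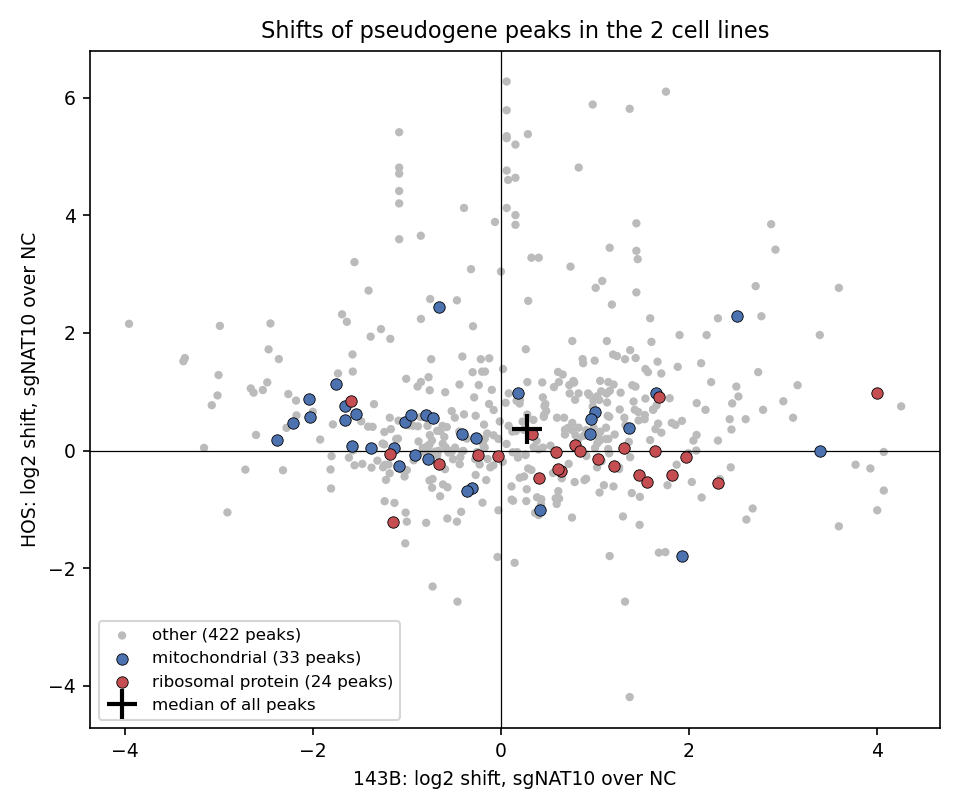
Log2 shift of each of the 479 pseudogene peaks in 143B (x axis) and HOS (y axis), sgNAT10 over NC, coloured by family, with the median of all 31395 peaks as a cross. Ribosomal protein peaks lie mostly right of 0 and near or under 0 on the y axis (medians 0.82 and -0.10), and mitochondrial peaks mostly left of 0 and above it (medians -0.78 and 0.46).

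Ribosomal protein pseudogenes were spread over 16 chromosomes, and 4 of their 24 peaks were of the transcribed type. In 143B 18 of 24 lay above 0 and 14 had a counting interval wholly above 0, while 3 had one wholly below. Of the 422 other pseudogene peaks, 127 had an interval wholly above 0 in 143B and 98 one wholly below. In HOS 6 of 24 lay above 0, and for 23 of 24 the interval included 0, against 245 of the 422 others. Under library totals alone 23 of 24 lay above 0 in HOS, so the sign in HOS depends on the scaling, whereas 18 to 20 lay above 0 in 143B under the 4 scalings. A shift in 143B above that in HOS was found for 20 of 24 peaks, against 44.8% of all peaks. Among the 21 that passed the filter, 9 were at least 2-fold higher and 3 at least 2-fold lower in 143B labelled sgNAT10. That is 42.9% and 14.3%, against 20.1% and 21.4% of all peaks that passed. In HOS the numbers were 0 and 1, that is 0% and 4.76%, against 24.4% and 8.74%.

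RPL41P1 (chromosome 20, 21755411 to 21755536), a copy of the gene for the very short large-subunit protein RPL41, had the most counts of this family. It had 2359 counts in 143B labelled sgNAT10 against 1704 in 143B NC, and 2920 in HOS labelled sgNAT10 against 2427 in HOS NC. Its shifts were -0.03 (interval -0.12 to 0.06) and -0.08 (interval -0.16 to -0.01). Scaled to depth, the best-counted copy was thus nearly level in both lines.

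Of the other 9 best-counted peaks of the family, 8 were higher in 143B labelled sgNAT10. RPL6P27 (chromosome 18, 6462116 to 6462274) had 1318 counts in 143B labelled sgNAT10 against 454 in 143B NC, and 706 in HOS labelled sgNAT10 against 610 in HOS NC, with shifts of 1.04 and -0.14. RPL13P12 (chromosome 17, 17383348 to 17383495) had 974 counts in 143B labelled sgNAT10 against 175 in 143B NC, and 285 in HOS labelled sgNAT10 against 242 in HOS NC, with shifts of 1.97 (interval 1.74 to 2.22) and -0.11 (interval -0.37 to 0.14). RPL6 and RPL13 are proteins of the large ribosomal subunit. Of the 4 libraries, 143B labelled sgNAT10 alone stood high for RPL13P12, at 34.5 CPM against 8.77 CPM in 143B NC, 12.3 CPM in HOS labelled sgNAT10 and 13.4 CPM in HOS NC.

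Copies of RPL13A, another large-subunit protein, gave like values at different places. RPL13AP25 on chromosome 13 had 897 counts in 143B labelled sgNAT10 against 367 in 143B NC, and 526 in HOS labelled sgNAT10 against 384 in HOS NC (shifts 0.79 and 0.10). RPL13AP5 on chromosome 10 had 751 counts in 143B labelled sgNAT10 against 296 in 143B NC, and 389 in HOS labelled sgNAT10 against 307 in HOS NC (0.84 and -0.01). For both, the intervals lay above 0 in 143B and included 0 in HOS.

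Copies of small-subunit genes showed the same order of the lines. RPS23P8 on chromosome X had 547 counts in 143B labelled sgNAT10 against 168 in 143B NC, and 238 in HOS labelled sgNAT10 against 224 in HOS NC (1.20 and -0.26). RPSAP26 on chromosome 2, a copy of the gene for the laminin receptor protein RPSA, had 222 counts in 143B labelled sgNAT10 against 56 in 143B NC, and 67 in HOS labelled sgNAT10 against 70 in HOS NC (1.47 and -0.41). RPL21P16 on chromosome 10 and RPL3P4 on chromosome 14 had shifts of 1.31 and 0.59 in 143B and 0.05 and -0.02 in HOS. RPL15P5 on chromosome 2 went the other way in 143B, with 82 counts in 143B labelled sgNAT10 against 92 in 143B NC (-0.66, interval -1.11 to -0.22). Its shift in HOS was -0.23.

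**Figure D2:**
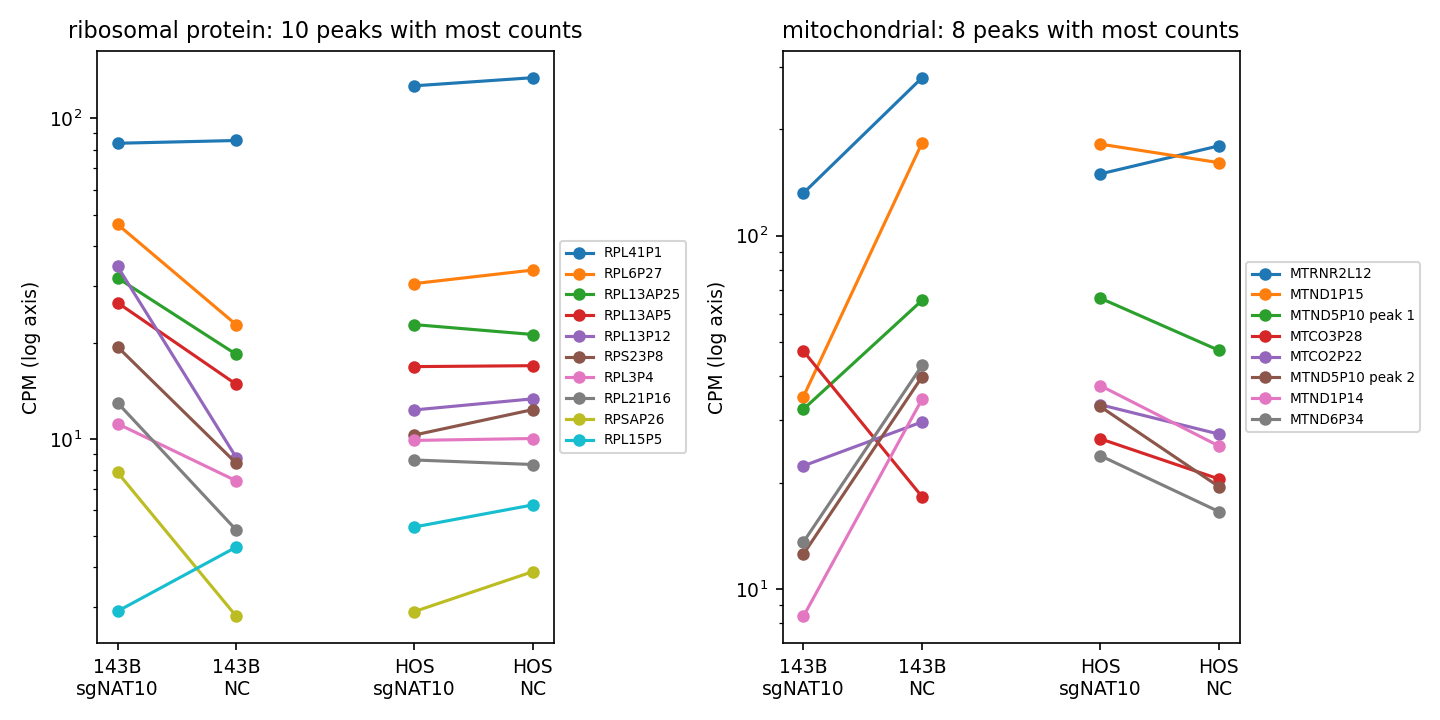
CPM on a log axis in each of the 4 libraries for the 10 ribosomal protein (left) and 8 mitochondrial (right) pseudogene peaks with the most counts; each line joins sgNAT10 with NC of 1 cell line. In 143B 8 of the 10 ribosomal protein peaks are higher and 7 of the 8 mitochondrial peaks lower in the library labelled sgNAT10; the HOS lines are flatter.

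The coding ribosomal protein genes gave the same order of the lines. Of 75 with a peak, 69 had a shift above 0 in 143B (median 0.60) and 72 one below 0 in HOS (median -0.39, and 0.19 under library totals alone). For 23 of the 24 pseudogene peaks the parent gene had a singly assigned peak, with 15 parents in all. The sign matched that of the parent for 16 of 23 in 143B and for 17 of 23 in HOS. The shift lay within 0.5 of the parent's for 6 of 23 in 143B and for 17 of 23 in HOS. Copy and parent were thus closer in HOS, where the shifts of the family were also narrower. Across these 23 peaks Spearman's rho with the parent was -0.22 in 143B and 0.33 in HOS, as a description of peaks that share parents and libraries.

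Single parents showed both near and distant copies. RPL6 had shifts of 0.97 and -0.15, beside 1.04 and -0.14 for RPL6P27. RPL13 had 0.87 and -0.20, beside 1.97 and -0.11 for RPL13P12. RPL13A had -0.45 in 143B, while its copies RPL13AP25 and RPL13AP5 had 0.79 and 0.84, so copies and parent lay on opposite sides of 0. RPL23A had 1.13 in 143B, while RPL23AP7 had -1.59 and RPL23AP53 -1.18, and these pairs differed the other way. Among all 172 members with a measured parent, 93 had the parent's sign in 143B and 110 in HOS.

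**Figure D3:**
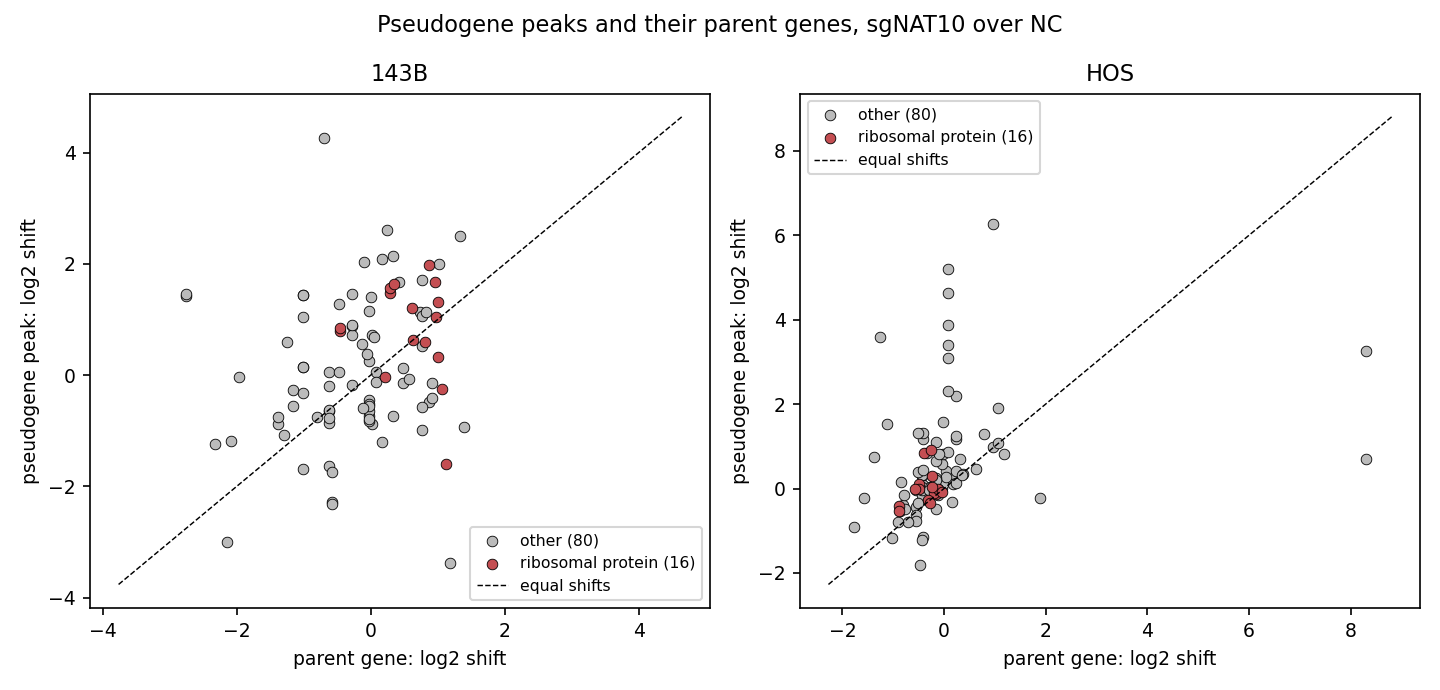
Log2 shift of pseudogene peaks whose mean count was at least 20 (y axis) against the shift of the summed peaks of the parent gene (x axis), in 143B (left) and HOS (right), with a dashed line of equal shifts; 16 ribosomal protein and 80 other peaks are drawn. In HOS the ribosomal protein copies lie close to the line, while a column of other copies stands far above it.

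Mitochondrial pseudogenes were found on 13 chromosomes, and 0 of their 33 peaks were of the transcribed type. In 143B 23 of 33 peaks had a shift below 0 and 20 had a counting interval wholly below 0, while 7 had one wholly above. Of the 422 other pseudogene peaks, 98 had an interval wholly below 0 in 143B and 127 one wholly above. In HOS 25 of 33 lay above 0, with 14 intervals wholly above 0 and 3 wholly below, against 135 and 42 of the 422 others. The pattern of lower in 143B and higher in HOS was shown by 18 of 33 peaks, against 8049 of all 31395 peaks. Under the 4 scalings 10 to 12 of 33 lay above 0 in 143B and 22 to 29 in HOS. Among the 28 that passed the filter, 1 was at least 2-fold higher and 13 at least 2-fold lower in 143B labelled sgNAT10. That is 3.57% and 46.4%, against 20.1% and 21.4% of all peaks that passed. In HOS the numbers were 2 and 1, that is 7.14% and 3.57%, against 24.4% and 8.74%.

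The peak with the most counts was on MTRNR2L12 (chromosome 3, 96617128 to 96618585), a nuclear copy of the mitochondrial 16S ribosomal RNA gene of the humanin-like group. It had 3722 counts in 143B labelled sgNAT10 against 5590 in 143B NC (shift -1.08, interval -1.14 to -1.02). In HOS it had 3454 in the library labelled sgNAT10 against 3252 in NC (-0.26, interval -0.33 to -0.19). The 8 peaks on MTRNR2L copies had medians of -1.002 in 143B and -0.02 in HOS, so the higher level in HOS rested on the other 25 peaks, with medians of -0.73 and 0.52.

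Copies of ND1, a subunit of respiratory complex I, had the lowest values in 143B. MTND1P15 (chromosome 17, 22525011 to 22525131) had 988 counts in 143B labelled sgNAT10 against 3657 in 143B NC (-2.38, interval -2.49 to -2.28). In HOS it had 4197 in the library labelled sgNAT10 against 2915 in NC (0.17, interval 0.11 to 0.24). MTND1P14, at another place on the same chromosome (19602260 to 19602431), had 236 counts in 143B labelled sgNAT10 against 688 in 143B NC, and 870 in HOS labelled sgNAT10 against 460 in HOS NC, with shifts of -2.04 and 0.57. Under each of the 4 scalings all 3 ND1 peaks lay below 0 in 143B and above 0 in HOS.

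ND5, ND6 and CO2 are further complex I and complex IV subunits. MTND5P10 on chromosome 5 had 2 peaks. The peak at 100048516 to 100048620 had 910 counts in 143B labelled sgNAT10 against 1310 in 143B NC, and 1538 in HOS labelled sgNAT10 against 858 in HOS NC (-1.02 and 0.49). The peak at 100047179 to 100047288 had 354 counts in 143B labelled sgNAT10 against 796 in 143B NC, and 759 in HOS labelled sgNAT10 against 353 in HOS NC (-1.66 and 0.75). MTND6P34 on chromosome 17 had 383 counts in 143B labelled sgNAT10 against 857 in 143B NC, and 551 in HOS labelled sgNAT10 against 300 in HOS NC (-1.66 and 0.52). MTCO2P22 on chromosome 5 had 629 counts in 143B labelled sgNAT10 against 593 in 143B NC, and 768 in HOS labelled sgNAT10 against 497 in HOS NC (-0.41 and 0.28). Of the 5 ND6 peaks 4 lay below 0 in 143B and 4 above 0 in HOS. Of the 5 ND5 peaks only the 2 on MTND5P10 lay below 0 in 143B, and 3 lay above 0 in HOS.

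CO3, a subunit of cytochrome c oxidase, was the exception among well-counted copies. MTCO3P28 (chromosome 4, 64611353 to 64611463) had 1328 counts in 143B labelled sgNAT10 against 364 in 143B NC (1.37, interval 1.20 to 1.54), and 615 in HOS labelled sgNAT10 against 371 in HOS NC (0.38, interval 0.19 to 0.57). MTCO3P17 on chromosome 2 had 97 counts in 143B labelled sgNAT10 against 34 in 143B NC, and 53 in HOS labelled sgNAT10 against 26 in HOS NC (0.996 and 0.66). Both copies thus lay above 0 in both lines. The ND2 peaks also lay above 0 in 143B, but their summed counts were 35 in the library labelled sgNAT10 against 8 in NC.

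**Figure D4:**
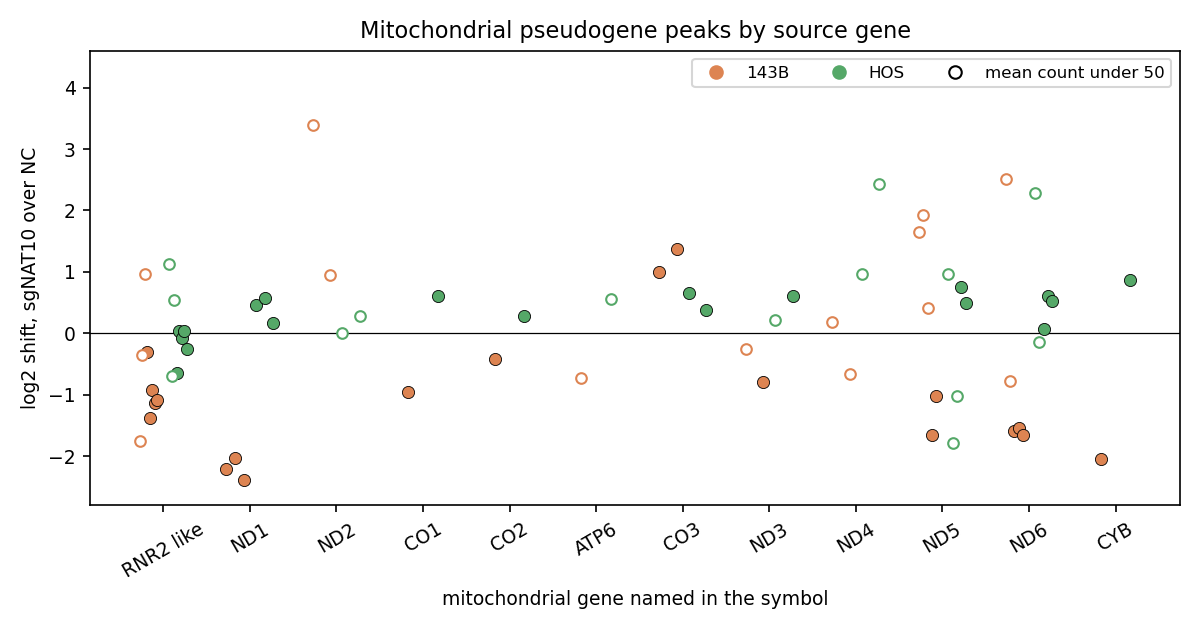
Log2 shift, sgNAT10 over NC, of the 33 mitochondrial pseudogene peaks by the mitochondrial gene in their symbol, 143B in orange and HOS in green; open points have a mean count under 50. Filled ND1, ND5, ND6 and CYB points are below 0 in 143B and above 0 in HOS, and both CO3 copies are above 0 in both lines.

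Peaks within 10000 bp of each other marked 3 inserts that held 13 of the 33 peaks. The insert on chromosome 17 (22523259 to 22532656, 6 peaks, with MTRNR2L1, MTND1P15 and MTND6P34) had 2736 counts in 143B labelled sgNAT10 against 6451 in 143B NC, and 5923 in HOS labelled sgNAT10 against 4201 in HOS NC. Its summed shifts were -1.74 and 0.14. The insert on chromosome 5 (100046659 to 100052972, 4 peaks) had 2170 counts in 143B labelled sgNAT10 against 3273 in 143B NC, and 3577 in HOS labelled sgNAT10 against 1970 in HOS NC, with -1.09 and 0.51. The insert on chromosome 1 (237943126 to 237950046, 3 peaks) had 137 counts in 143B labelled sgNAT10 against 315 in 143B NC, and 362 in HOS labelled sgNAT10 against 238 in HOS NC, with -1.70 and 0.25. In the chromosome 17 and chromosome 5 inserts every peak lay below 0 in 143B, and in the chromosome 1 insert the highest peak was at 1.93.

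Among the other pseudogenes, EEF1A1P5 on chromosome 9 had the most counts of any member. It is a copy of the gene for translation elongation factor 1 alpha, which brings transfer RNA to the ribosome. Its best-counted peak (133020808 to 133021120) had 6687 counts in 143B labelled sgNAT10 against 3993 in 143B NC (0.25), and 7467 in HOS labelled sgNAT10 against 7945 in HOS NC (-0.44). The other 2 peaks had shifts of -0.73 and -0.65 in 143B and of -0.63 and -0.78 in HOS, so 1 of its 3 peaks was above 0 in 143B. The parent EEF1A1 had -0.03 and -0.56. EEF1A1P6 on chromosome 7 had 1304 counts in 143B labelled sgNAT10 against 415 in 143B NC, and 826 in HOS labelled sgNAT10 against 669 in HOS NC (1.15 and -0.05).

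Pseudogenes named as ribosomal RNA copies were lower in 143B labelled sgNAT10. Outside the block, RefSeq symbols or synonyms marked 19 peaks on 7 genes as copies of 18S, 28S or 5.8S ribosomal RNA, a group put together after values were seen. All 19 had a shift below 0 in 143B (median -1.24, range -2.91 to -0.40), under each of the 4 scalings. At least 2-fold lower were 15 (78.9%), against 21.4% of all peaks that passed the filter. The group holds only genes so named, and copies without such a name may be missing from it. LOC110262331, printed above, carries no such symbol or synonym and is not in it. Whether its letters make it a ribosomal RNA copy was not tested, so the direction of the 19 holds for named genes only. Its longer peak, with more counts than any of the 19, had a shift of 0.35 in 143B (interval 0.27 to 0.42), and its shorter one, the sequence shown, had -0.67. In HOS 5 of the 19 lay above 0 (median -0.25), and 14 did under library totals alone. RNA18SP (chromosome 22, 11630068 to 11631076) had 1929 counts in 143B labelled sgNAT10 against 2355 in 143B NC (-0.79), and 1781 in HOS labelled sgNAT10 against 1328 in HOS NC (0.07). LOC110467531 on chromosome 19, with RNA28SP as a synonym, had 5 peaks, all below 0 in both lines. Its peak at 23999543 to 23999713 had 31 counts in 143B labelled sgNAT10 against 171 in 143B NC, and 29 in HOS labelled sgNAT10 against 48 in HOS NC (-2.91 and -1.05).

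ERLEC1P1 on chromosome 21 had a wide gap between the lines. It is a copy of ERLEC1, a lectin of the endoplasmic reticulum. Its 10 peaks had 370 counts in 143B labelled sgNAT10 against 2203 in 143B NC, and 4098 in HOS labelled sgNAT10 against 1792 in HOS NC. The longest of them (14096713 to 14099686) had 322 counts in 143B labelled sgNAT10 against 1932 in 143B NC, and 3453 in HOS labelled sgNAT10 against 1586 in HOS NC, with shifts of -3.08 (interval -3.26 to -2.91) and 0.77 (interval 0.69 to 0.86). All 10 were below 0 in 143B and above 0 in HOS under each of the 4 scalings. HMGA1P3 on chromosome 12, a copy of the gene for the chromatin protein HMGA1, had 49 counts in 143B labelled sgNAT10 against 285 in 143B NC, and 309 in HOS labelled sgNAT10 against 99 in HOS NC (-3.01 and 1.28), beside -2.14 and 0.78 for HMGA1 itself. It was named after its values were seen.

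A 143B shift far above the HOS shift was found for SERBP1P3, BZW1P2 and PET100P1, all on chromosome 3, and for HNRNPKP3 on chromosome 11. SERBP1P3 had 41 counts in 143B labelled sgNAT10 against 4 in 143B NC, and 13 in HOS labelled sgNAT10 against 24 in HOS NC (2.61 and -1.17). BZW1P2 had 98 counts in 143B labelled sgNAT10 against 20 in 143B NC, and 17 in HOS labelled sgNAT10 against 46 in HOS NC (1.75 and -1.73). PET100P1 had 39 counts in 143B labelled sgNAT10 against 8 in 143B NC, and 10 in HOS labelled sgNAT10 against 28 in HOS NC (1.68 and -1.74). HNRNPKP3, a copy of the gene for the RNA-binding protein hnRNP K, had 77 counts in 143B labelled sgNAT10 against 2 in 143B NC, and 5 in HOS labelled sgNAT10 against 2 in HOS NC. Its shifts were 4.26 in 143B and 0.75 in HOS, so it was not lower in HOS. It did not pass the filter on low counts. For the first 3 the counting intervals excluded 0 in both lines. All 4 peaks were named for the size of this gap between the lines, so their intervals give no support to it.

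Some named peaks had the same direction in both lines. ZNF734P on chromosome 7, a zinc finger pseudogene, had 1914 counts in 143B labelled sgNAT10 against 168 in 143B NC (3.01, interval 2.78 to 3.25). In HOS it had 1027 in the library labelled sgNAT10 against 450 in NC (0.84, interval 0.68 to 1.002). LOC107986665 on chromosome 6 carried the most peaks of any member, 13, and all lay above 0 in both lines. Summed, they had 369 counts in 143B labelled sgNAT10 against 99 in 143B NC, and 335 in HOS labelled sgNAT10 against 175 in HOS NC. Under DESeq2-type or upper quartile factors 12 of the 13 stayed above 0 in HOS. INTS4P1 had 2 peaks on chromosome 7. The peak at 65144301 to 65146805 had 1143 counts in 143B labelled sgNAT10 against 301 in 143B NC, and 345 in HOS labelled sgNAT10 against 167 in HOS NC (1.42 and 0.69). The peak at 65186855 to 65187034 had 130 counts in 143B labelled sgNAT10 against 33 in 143B NC, and 313 in HOS labelled sgNAT10 against 25 in HOS NC (1.46 and 3.25). Its parent INTS4, a subunit of the Integrator complex, had 13 counts in 143B labelled sgNAT10 against 67 in 143B NC, and 1936 in HOS labelled sgNAT10 against 4 in HOS NC (-2.75 and 8.30).

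KIR2DP1 on chromosome 19 had 70 counts in 143B labelled sgNAT10 against 15 in 143B NC, and 31 in HOS labelled sgNAT10 against 8 in HOS NC (1.67 and 1.51). The peak of LOC124901865 on chromosome 8 at 7904119 to 7904227, 1 of 3 that all lay above 0 in both lines, had 54 counts in 143B labelled sgNAT10 against 12 in 143B NC, and 44 in HOS labelled sgNAT10 against 9 in HOS NC (1.60 and 1.85). LOC646548 had 7 counts in 143B labelled sgNAT10 against 0 in 143B NC, and 77 in HOS labelled sgNAT10 against 8 in HOS NC. The peak of CYP2B7P at 40949088 to 40949322 had 8 counts in 143B labelled sgNAT10 against 0 in 143B NC, and 69 in HOS labelled sgNAT10 against 3 in HOS NC. These 2 peaks did not pass the filter. CYP2B7P had 2 further peaks, and its lowest shift in 143B was -1.18. Lower in both lines were single peaks on KIF19BP on chromosome 7 (2386632 to 2387134, -1.01 and -1.05) and UBE2Q2P2 on chromosome 15 (-1.13 and -0.89). So were single peaks on PDE4DIPP1 on chromosome 1 (-0.80 and -1.23) and RNA18SP2 on chromosome Y (-1.24 and -0.86). Other peaks of KIF19BP and RNA18SP2 reached 0.19 and 0.44 in HOS. The longer of 2 SEPTIN7P13 peaks and the LOC107984974 peak, named for their counts, had shifts of -0.15 and 0.26 in 143B and of 0.29 and -0.08 in HOS.

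Copies of the tumour suppressor and kinase genes NF1, CHEK2, PMS2 and MAP2K1 formed a column of very high values in HOS. This group of 33 peaks on 20 pseudogenes was chosen after its values were seen. All 33 had a shift above 0 in HOS, with a median of 3.40, or 3.08 with libraries at 0 counts set to a floor of 3 counts, and under DESeq2-type factors 32 did. In 143B 17 of 33 lay above 0, with a median of 0.06. That median is the shift of several CHEK2P2 peaks with the same 143B counts, 3 against 2. Equal 143B counts also recurred within NF1P9 and NF1P1. Whether summed 143B counts hold the same reads more than once was not tested. Of the 33, 14 passed the filter on low counts, and the others did not. Summed, they had 512 counts in 143B labelled sgNAT10 against 388 in 143B NC, and 2312 in HOS labelled sgNAT10 against 428 in HOS NC. The epithelial marker CDH1, over 15 peaks, was also higher in HOS, with 812 counts in HOS labelled sgNAT10 against 5 in HOS NC. In 143B CDH1 had 7 counts in the library labelled sgNAT10 against 30 in NC. Its 143B shift of -2.40 (interval -4.03 to -1.38) lay below the median of the group. EPCAM, KRT19 and KRT5 had no peak, and the part of other cell types in the result was not tested.

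NF1 encodes neurofibromin, which switches RAS off, and its 16 copy peaks had 28 to 144 counts in HOS labelled sgNAT10 (median 57.5) against 0 to 29 in HOS NC (median 3.5). NF1P1 on chromosome 15 had 5 peaks with 327 counts in HOS labelled sgNAT10 against 7 in HOS NC, and 41 in 143B labelled sgNAT10 against 26 in 143B NC. Its peak at 20935375 to 20935519 had 84 counts in HOS labelled sgNAT10 against 1 in HOS NC (5.20, interval 3.52 to 11.4). The parent NF1, over 8 peaks, had 480 counts in HOS labelled sgNAT10 against 354 in HOS NC (0.09, interval -0.11 to 0.29), and 150 in 143B labelled sgNAT10 against 215 in 143B NC (-1.01).

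CHEK2 encodes a DNA damage kinase. CHEK2P2 on chromosome 15 had 5 peaks with 254 counts in HOS labelled sgNAT10 against 2 in HOS NC, and 16 in 143B labelled sgNAT10 against 11 in 143B NC. Its peak at 20285223 to 20285489 had 79 counts in HOS labelled sgNAT10 against 0 in HOS NC. That is at least 20.6-fold higher, against a floor of 3 counts in the library. CHEK2 itself had 379 counts in HOS labelled sgNAT10 against 152 in HOS NC (0.96), and 86 in 143B labelled sgNAT10 against 85 in 143B NC (-0.48).

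PMS2 encodes a mismatch repair protein, and its 8 copy peaks had a smaller median in HOS, 1.21, and were all below 0 in 143B (median -0.81). PMS2P5 on chromosome 7 had 213 counts in HOS labelled sgNAT10 against 36 in HOS NC (2.19), and 15 in 143B labelled sgNAT10 against 35 in 143B NC (-1.64). The 2 peaks of MAP2K1P1 had 88 counts in HOS labelled sgNAT10 against 6 in HOS NC, while MAP2K1, a kinase of the RAS pathway, had -1.25 in HOS. With libraries at 0 counts set to the floor of 3 counts, the median HOS shift was 3.75 over the NF1 copies, 3.45 over the CHEK2 copies, of which 4 of 7 had 0 counts in HOS NC, and 2.88 over the MAP2K1 copies.

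**Figure D5:**
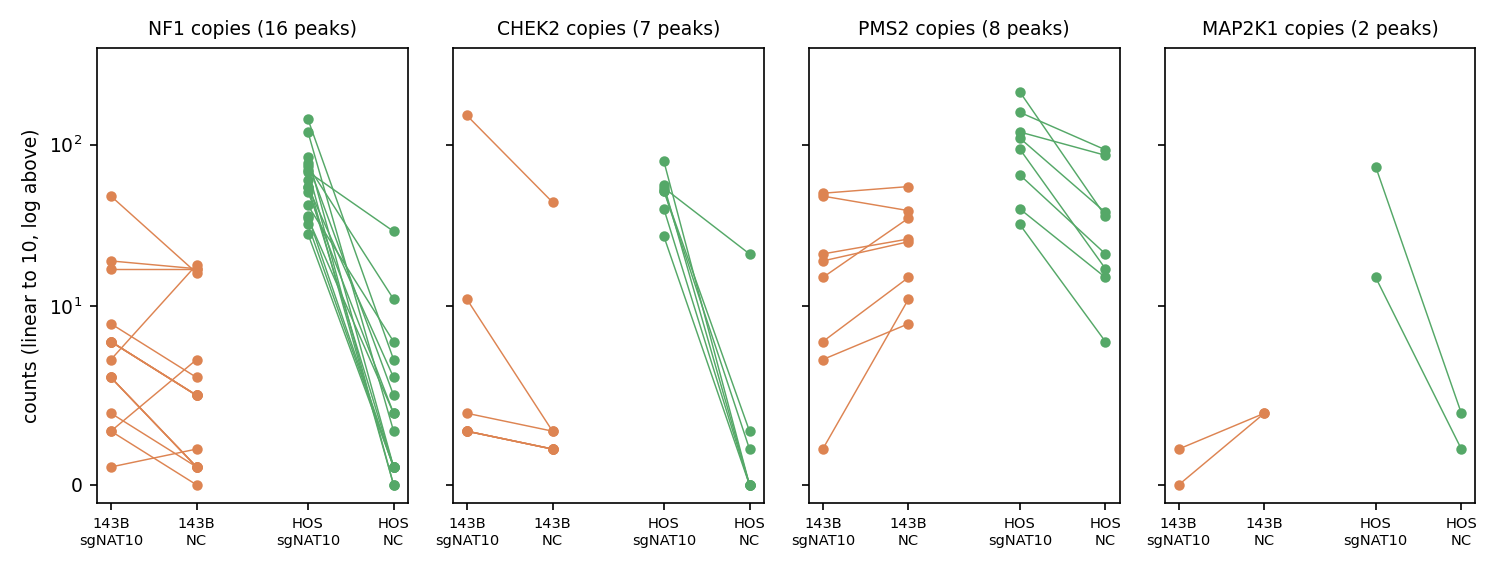
Counts per library (linear to 10, log above) of the 33 peaks on copies of NF1, CHEK2, PMS2 and MAP2K1; lines join sgNAT10 with NC of 1 cell line, 143B in orange and HOS in green. The HOS library labelled sgNAT10 holds 28 to 144 counts on the NF1 copies, against 0 to 29 in HOS NC.

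Peaks with counts almost wholly in HOS labelled sgNAT10 were also counted without regard to name. With at least 20 counts there and every other library at 20% of it or less, they made up 28 of 479 members (5.85%) and 1134 of all 31395 peaks (3.61%). Of the 28, 18 were copies of the 4 genes, which were chosen after their values were seen, so the overlap gives no support. The others included peaks on FLT1P1, IDH1P1, RAD52P1, CYP2B7P, LOC646548 and WHAMMP2, and those described next were chosen after their values were seen. FLT1P1 on chromosome 3, a copy of the receptor gene FLT1, had a peak with 57 counts in HOS labelled sgNAT10 against 0 in HOS NC, at least 14.9-fold higher. IDH1P1 on chromosome 6, a copy of the isocitrate dehydrogenase gene IDH1, had one with 42 counts in HOS labelled sgNAT10 against 0 in HOS NC. All of them rest on the HOS library labelled sgNAT10, whose part in the result was not tested.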

How the data were processed

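acRIP libraries of 143B and HOS, 1 for each line and genotype, were analysed. The deposited values are raw read counts per peak interval, made by the authors and given in 1 table per line with the same intervals. Per the submitters' processing notes the build was GRCh38 and FastQC, STAR, SAMtools and deepTools were used; the peak caller, counter, strand and multi-mapping settings are not given in the sources used here. A further 7 columns were blank. Totals per library (20107718 to 24785306) are sums over peaks, so the sequencing depth is unknown.

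Intervals were set against 59792 RefSeq gene spans (GRCh38.p14) in Python 3.11.15 with pandas 2.3.3. Symbols gave the families, and MTRNR2L copies, which the written rule did not cover, were put with the mitochondrial ones. A parent is the protein-coding gene named by the symbol without its P and number, and its value is the sum of its singly assigned peaks. The members, families and lists were chosen with earlier results of these data known. Shifts used TMM factors (edgeR 4.0.16, R 4.3.3). The test across lines was edgeR's quasi-likelihood test after filterByExpr (minimum count 10, minimum total 15) with Benjamini-Hochberg adjustment over all tested peaks, checked on simulated data. DESeq2 1.42.0, limma 3.58.1, other scalings, priors and filters were alternatives. Named were the 10 ribosomal protein, 8 mitochondrial and 10 other peaks with the most counts and, with a mean count of 20 or more, 5 highest and 5 lowest in both lines and 4 at each end of the difference between lines. Others are said to be named after their values were seen, and parents, inserts and long series of peaks were named to describe these.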

Additional observations from a re-analysis of the deposited data

Results flagged for a closer look

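The shift had opposite signs in 143B and HOS for the medians of 2 families. Among the 46 peaks named by the rule on counts and shifts, 14 had opposite signs with counting intervals that excluded 0 in both lines. Some of the 46 were named for a large difference between the lines, so their place among the 14 gives no support. Values are the 143B shift minus the HOS shift on the log2 scale. None of these differences was tested, since each line had 1 library per genotype and 143B labelled sgNAT10 correlated least with the other libraries.

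The median of the ribosomal protein pseudogene peaks differed by 0.92, and that of the mitochondrial ones by -1.24. Among mitochondrial copies the difference was -2.56 for MTND1P15, -2.60 for MTND1P14, -2.18 for MTND6P34 and -0.69 for MTCO2P22. The 2 peaks of MTND5P10 differed by -1.51 and -2.42. ERLEC1P1 differed by -3.85 at its longest peak, and by -4.94 at its peak from 14092850 to 14094211. The peak of LOC112267918 on chromosome 7 at 45813175 to 45813273, 1 of 2, differed by -5.11, with 6 counts in 143B labelled sgNAT10 against 40 in 143B NC, and 70 in HOS labelled sgNAT10 against 12 in HOS NC. SERBP1P3, BZW1P2 and PET100P1 differed by 3.79, 3.48 and 3.42. The best-counted peak of EEF1A1P5 differed by 0.69 and the longer SEPTIN7P13 peak by -0.44, and the sign of a shift in 1 line changed for both with library totals alone.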

How the results depend on the processing

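No test within a line was possible, inputs were not used, and multi-mapping reads were handled in a way not given here. Without the filter on low counts edgeR called 2 members (NF1P6, 70 counts in HOS labelled sgNAT10 against 0 in HOS NC, and FLT1P1), by construction because untested peaks entered. That is 0.418% of members, against 0.357% of all peaks (112 of 31395). The other 5 alternatives of the test called 0 members. The test pairs libraries by cell line, and without that block 0 members were called too. No paired analysis was possible by replicate number because the labels give none.

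The median over all members in 143B (0.25) was 0.16 with DESeq2-type factors, 0.45 with upper quartile factors, 0.58 with library totals alone, 0.22 with a prior count of 5, 0.35 with 1 value per pseudogene and -0.16 over peaks whose mean count was at least 20. In HOS (0.41) it was 0.26, 0.31, 0.96, 0.33, 0.35 and 0.26 in the same order.

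Family medians minus the all-peak median could hardly move with scaling, which adds a near constant to both. The cause of the moves below was not tested. For ribosomal protein copies a mean count of 20 or more gave 1.01 in 143B and -0.30 in HOS, peaks under 300 bp gave 0.45 and -0.39, and a prior count of 5 gave -0.38 in HOS. For mitochondrial copies in 143B a prior count of 5 gave -0.91, a mean count of 20 or more -0.85, 1 value per pseudogene -1.01, peaks under 300 bp -1.17 and leaving out MTRNR2L -1.01. In HOS library totals gave 0.14, a mean count of 20 or more 0.25, 1 value per pseudogene 0.16, peaks under 300 bp 0.16 and leaving out MTRNR2L 0.16. For other copies in 143B (-0.02) a mean count of 20 or more gave 0.079, 1 value per pseudogene 0.068 and peaks under 300 bp -0.11, and in HOS (0.07) 1 value per pseudogene and peaks under 300 bp gave 0.024 and 0.11.

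Counts of 2-fold differences in 143B, 89 higher and 79 lower, were 35 and 37 where the mean count was at least 50, by construction since fewer peaks entered, and 50 lower with library totals. At that mean count this was 23.6% and 25% of members, against 14.4% and 32.1% of all peaks. With library totals 13.4% were lower, against 15.7%. In HOS, 74 higher and 23 lower, they were 16 and 7 at that mean count and 160 and 7 with library totals, and 13 were lower with a prior count of 5. At that mean count this was 10.8% and 4.73% of members, against 13.3% and 13.2% of all peaks. With library totals it was 42.9% and 1.88%, against 43.7% and 2.52%, and with a prior count of 5 it was 3.49% lower, against 7.01%. Among 92 shifts of 46 named peaks, 264 of 368 alternatives stayed within counting error and 99 moved further. The sign differed from the main one in 21, of which 12 were HOS shifts with library totals. For 5 of the 21 the counting interval had excluded 0. With library totals these were RPL41P1 (0.50), MTRNR2L12 (0.32) and EEF1A1P5 (0.14) in HOS and SEPTIN7P13 (0.20) in 143B, which also gave 0.063 with upper quartile factors. The alternatives of 1 value per pseudogene, peaks under 300 bp and leaving out MTRNR2L for the families were chosen after seeing the data.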

Other observations

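Copies of heat shock protein and hnRNP genes were few among the members. Of 5 heat shock copies all 5 lay above 0 in 143B (median 0.76), among them HSP90AA4P, a copy of the gene for the chaperone HSP90 alpha, with 33 counts in 143B labelled sgNAT10 against 7 in 143B NC (1.62). In HOS their median was 0.47. The 6 peaks on hnRNP copies had medians of -0.29 and 0.37. EIF3FP3, a copy of the gene for a subunit of translation initiation factor 3, had 154 counts in 143B labelled sgNAT10 against 26 in 143B NC (2.03), and 49 in HOS labelled sgNAT10 against 56 in HOS NC (-0.53). RN7SKP232, a copy of the small nuclear 7SK RNA, had 312 counts in 143B labelled sgNAT10 against 63 in 143B NC, and 223 in HOS labelled sgNAT10 against 94 in HOS NC (1.80 and 0.89).

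No member lay on a copy of the genes for glyceraldehyde phosphate dehydrogenase, actin, tubulin, prothymosin, ferritin, cyclophilin A, nucleophosmin, lactate dehydrogenase, TPT1, enolase 1 or phosphoglycerate kinase 1, as far as symbols show. On chromosome 7 LOC101929322, typed as a transcribed pseudogene, had 5 peaks that all lay above 0 in both lines. Summed, they had 2927 counts in 143B labelled sgNAT10 against 926 in 143B NC, and 971 in HOS labelled sgNAT10 against 468 in HOS NC. Peaks of 1000 bp or wider numbered 13 and had medians of -0.15 in 143B and 0.52 in HOS, against -0.65 and 0.49 for all 891 such peaks.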
